A study of Mus musculus with 26 samples.

Results

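The 35 genes described here encode the intraflagellar transport (IFT) machinery and the BBSome, together with the motors that carry them, and they were followed through 23 RNA sequencing libraries of mouse testis and sorted male germ cells. They were taken from 24682 counted genes by symbol, not by any measured value: every Ift or Bbs symbol followed by a number, and Wdr19, Wdr35, Ttc8, Ttc21a, Ttc21b, Traf3ip1, Cluap1, Kif3a, Kif3b, Kif17, Kifap3, Dync2h1 and Dync2li1. By known role they comprise 7 IFT-B core subunits, 6 IFT-B peripheral subunits, 7 IFT-A subunits, 7 BBSome subunits, 2 BBS chaperonins, 4 kinesin-2 genes and 2 dynein-2 genes. All 35 are annotated as protein coding, they lie on 16 chromosomes, and all 35 passed the filter on low counts in every comparison.

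The study compared male mice of strain C57BL/6 at postnatal day 21. Whole testis came in 3 sets, each with its own wild-type group: an Nkapl knockout (3 wild-type and 2 knockout libraries), a Sox30 knockout (3 wild-type and 2 knockout libraries) and mice homozygous for an Nkapl allele called TGdel (2 wild-type and 3 TGdel libraries). Pachytene spermatocytes and round spermatids were prepared from wild-type and Nkapl knockout mice, with 2 libraries for each cell type and genotype, and their titles carry the same day 21. The labels state neither which part of Nkapl or Sox30 was removed nor what TGdel deletes, while a frameshift of NKAPL is named in the title of the series.

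Cilia and the sperm tail are built by trains of protein that travel along the microtubules of the axoneme. Kinesin-2 pulls IFT-B trains toward the tip, dynein-2 with IFT-A returns them to the base, and the BBSome rides on the trains as an adaptor for membrane cargo. Male mice that lack BBSome subunits such as Bbs2 or Bbs4, or that lose IFT subunits such as Ift20, Ift140 or Ift172 in germ cells, make few normal sperm tails. The tail begins to grow in round spermatids, the haploid cells that follow the pachytene stage of meiosis. Sox30 encodes a transcription factor of late meiotic and haploid germ cells, and Nkapl encodes a germ cell protein related to the nuclear protein NKAP.

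Many ciliary genes carry an X-box in their promoter, the inverted repeat bound by RFX transcription factors. RefSeq (GRCm38.p6) gave promoters for 31 of the 35 members (not for Dync2li1, Ift122, Ift80 and Ift81). The 250 bases before the RefSeq start were searched on both strands for an X-box written as GTNNCC and GNNAC with 1 to 3 bases between them. Such a match was present in 9 of the 31 member promoters (29.0%: Bbs7, Ift22, Ift27, Ift46, Ift57, Kif17, Kif3b, Ttc21a and Wdr19) and in 9.2% of 32851 promoters of the same length. Of the 24 members with a promoter that fell in Nkapl knockout testis, 8 held a match. The cAMP response element TGACGTCA was present in 2 member promoters (6.45%: Ift57 and Kif17) and in 1.55% of all promoters. The letters ACAAT, a core motif of the SOX family, were in 7 member promoters (22.6%) and in 27.7% of all promoters. A match is a run of letters, not a measured binding site. Promoter stretches of 5 members are written out with the X-box in capitals because they lie before genes of different complexes, among them the members that fell most in knockout testis.
Kif17: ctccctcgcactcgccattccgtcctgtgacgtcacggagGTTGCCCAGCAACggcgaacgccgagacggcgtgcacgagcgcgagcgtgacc
Ttc21a: gctgctgcGTGGCCTAGTCACgtggggcc
Ift22: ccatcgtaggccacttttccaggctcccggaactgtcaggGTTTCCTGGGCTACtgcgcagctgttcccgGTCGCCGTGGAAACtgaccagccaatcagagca
Wdr19: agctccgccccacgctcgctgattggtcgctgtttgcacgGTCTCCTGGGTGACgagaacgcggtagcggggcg
Bbs7: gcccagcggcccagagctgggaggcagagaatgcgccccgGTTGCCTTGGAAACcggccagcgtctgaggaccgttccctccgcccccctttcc
The Kif17 stretch (plus strand, chr4:138262138-138262230) also holds the cAMP response element in lower case, which starts 86 bases before the RefSeq start, just ahead of the X-box. It lies in no annotated exon but inside the GENCODE vM21 span of Kif17 (chr4:138250435-138301967), whose annotated start is further upstream. The Ttc21a stretch (plus strand, chr9:119937532-119937560) is kept short because it lies within an exon of the neighbouring gene Gorasp1. The Ift22 stretch (plus strand, chr5:136908047-136908149) holds 2 X-box matches, and like the Wdr19 stretch (plus strand, chr5:65199622-65199695) it lies outside annotated exons. The Bbs7 stretch (minus strand, chr3:36613457-36613550) holds 1 match and overlaps an annotated Bbs7 exon by 21 bases.

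Libraries were named by the heading of their count column. Each testis set holds 1 repeated column, which was counted once, and total counts ran from 16469667 to 40010106. In 4 testis libraries the heading and the file record name different groups: Nkapl-WT testis 3, Sox30-WT testis 3, Nkapl TGdel testis 3 and, of the same set, wild-type testis 2. The main calls of members in each testis comparison were also made without them. Counts by complex and combinations with the germ cell results were not repeated without them. The design text calls the replicates biological. Levels are given as CPM, counts scaled by edgeR to a common library size within a fit, so they compare libraries of 1 testis set, or the 8 germ cell libraries, but not sets with each other. "Rose" and "fell" are used of genes with an adjusted p under 0.05 in edgeR's quasi-likelihood test. A fold change is a difference on the log2 scale with its standard error (SE).

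As a check of the labels, Nkapl itself was at 74.9, 79.5 and 79.9 CPM in Nkapl-WT and at 60.8 and 57.8 CPM in Nkapl-KO testes (log2 -0.40 ± 0.05 SE, adjusted p = 2.96e-06). In round spermatids it read 88.4 and 90.3 CPM in wild type and 24.6 and 23.6 CPM in knockout. In pachytene spermatocytes the order was opposite, with 90.1 and 86.0 CPM in the libraries labelled wild type and 127 and 125 CPM in those labelled knockout, so for spermatocytes the groups are called by their labels. Sox30 read 77.6, 86.2 and 72.4 CPM in Sox30-WT and 44.7 and 61.5 CPM in Sox30-KO testes, below every wild-type library but not called (log2 -0.57 ± 0.15 SE, adjusted p = 0.171). Since the removed parts are not given, reads outside them would not show a deletion.

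Markers of other cells moved with the groups, and their part in the results on the members was not tested. The summed level of 9 round spermatid markers was 178 to 208 CPM in Nkapl-WT testes but 75.0 and 76.8 CPM in Nkapl-KO testes, where 3 of the 9 (Tnp2, Prm1 and Prm2) had no count in either library. In the germ cell libraries none of the 9 was at 0, and the sum was 6828 and 7060 CPM in wild-type spermatids, 1950 and 1977 CPM in knockout spermatids, 2112 and 2214 CPM in spermatocytes labelled wild type and 794 and 816 CPM in those labelled knockout. The median log2 fold change of the 9 was -0.40 in spermatids and -0.62 in spermatocytes, smaller falls than those of the sums. In knockout testis the median of the 7 tested was -3.78. The sum of 8 Sertoli cell markers was 479 to 495 CPM in wild-type and 597 and 626 CPM in Nkapl knockout testes. It was 44.2 and 44.5 CPM in spermatocytes labelled wild type, 29.7 and 32.2 CPM in those labelled knockout and 7.3 to 8.8 CPM in spermatids. Leydig cell markers summed to 8.10 and 8.35 CPM in wild-type and 20.2 and 21.5 CPM in knockout spermatids (5 of 5 tested rose), and to 39.6 and 40.5 CPM against 56.8 and 61.1 CPM in spermatocytes labelled wild type and knockout. Macrophage markers summed to 8.82 and 9.08 CPM in wild-type and 15.2 and 15.9 CPM in knockout spermatids. Spermatogonial markers rose in 5 of 5 cases in knockout testis, from 173 to 178 CPM in wild type to 222 and 227 CPM. Rn45s, the ribosomal RNA precursor, took 3.96% to 3.97% of counts in Nkapl-WT and 5.29% and 5.53% in Nkapl-KO testes. Reads that the counting did not assign to a gene, whatever the reason, were 18.76% to 20% in germ cell libraries labelled wild type. They were 23.16% to 24.64% in those labelled knockout. The sum of 6 genes of multiciliated epithelium, Foxj1 among them, was 88.5 to 115 CPM in Nkapl-WT and 19.8 CPM in both Nkapl-KO testes. The same genes summed to 315 and 316 CPM in spermatocytes labelled wild type and 790 and 794 CPM in wild-type spermatids. In those labelled knockout they summed to 202 and 204 CPM and to 630 and 637 CPM. In these data the list thus does not mark such epithelium alone. The 7 pachytene spermatocyte markers, none at 0, summed to 4485 to 4514 CPM in Nkapl-WT and to 3842 and 3755 CPM in Nkapl-KO testes. In knockout testis 5 of the 7 fell and 1 rose (26.1% and 17.8% of all genes), with a median log2 fold change of -0.28. In the germ cell libraries they summed to 7818 to 9203 CPM in spermatocytes and 7953 to 9040 CPM in spermatids. Between the wild-type stages 3 of the 7 were higher and 2 lower in spermatids. This list therefore does not tell the 2 cell types apart. In bulk tissue, fewer cells of a type and less RNA per cell cannot be told apart.

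**Figure D1:**
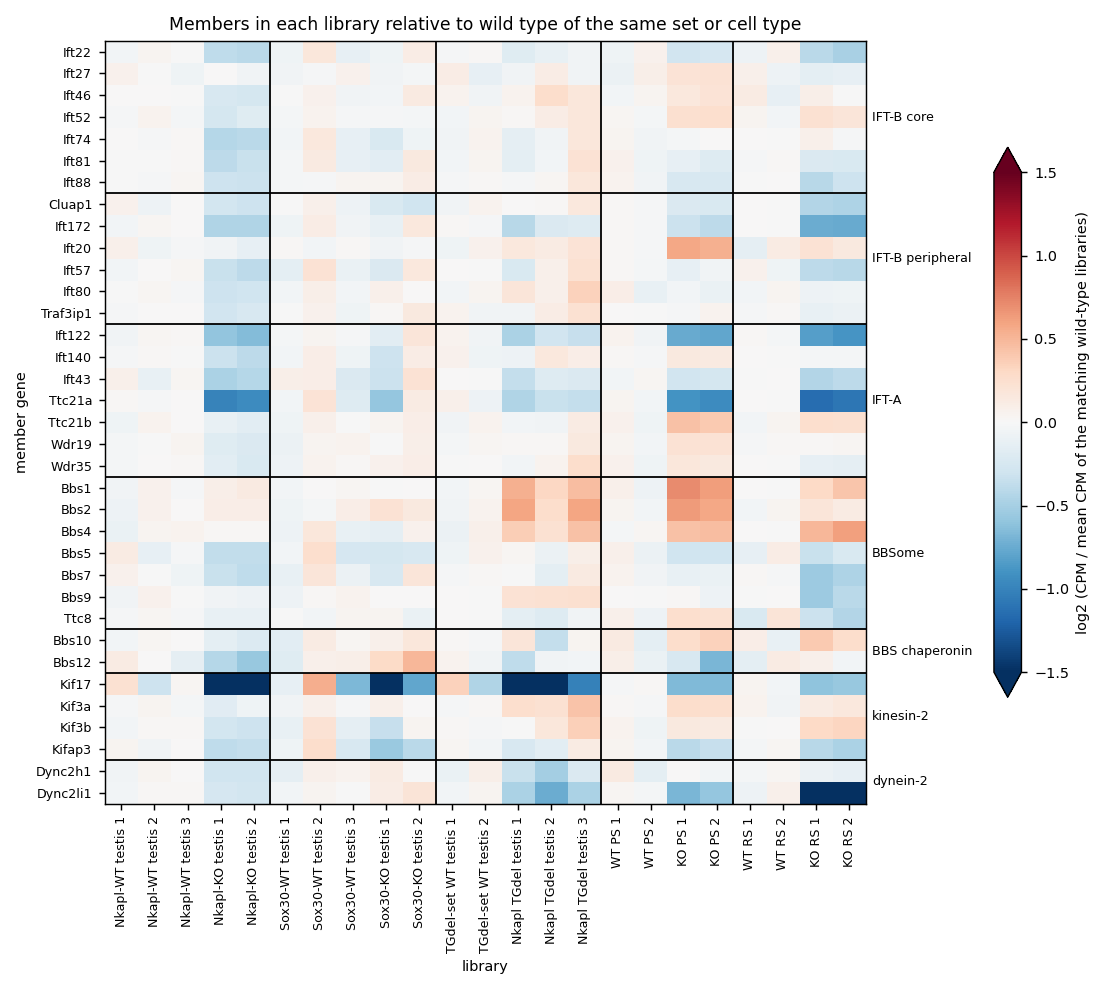
Each cell shows, for 1 member gene (rows, grouped by complex) in 1 library (columns), the log2 ratio of its CPM to the mean CPM of the wild-type libraries of the same testis set or cell type (blue lower, red higher, colours saturate at 1.5). In the Nkapl knockout testes 28 of 35 genes were called lower, Kif17 is low in all mutant testes, and the spermatocyte and spermatid columns hold both blue and red rows.

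Read per kilobase of the longest coding transcript, the members spanned a wide range. In wild-type testes of the Nkapl set the level ran from 3.84 RPKM (reads per kilobase scaled to library size) for Bbs12 to 118 RPKM for Ift140, with a median of 29.7 RPKM. Ift140, Ift74, Ift172 and Ift122 led there, and Bbs12, Ttc8 and Kif17 were lowest. In wild-type spermatids the order differed at the top: Kif17 was first at 212 ± 8.19 RPKM (SD, n = 2), followed by Ift43 at 198 ± 0.339 RPKM (n = 2) and Ift74 at 154 ± 1.41 RPKM (n = 2), while Ttc8 was last at 2.53 ± 0.526 RPKM (n = 2). The first 2 do not overlap between their libraries.

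In Nkapl knockout testis most IFT and motor genes and 2 of 7 BBSome genes were lower. Of the 35 members, 28 fell and 0 rose, where 26.1% of all genes tested fell and 17.8% rose, and the median log2 fold change was -0.29 against 0.01 over all genes. At an unadjusted p under 0.05, 28 were lower and 1 higher, and DESeq2 called 26 lower and 0 higher (3865 and 2051 of 16937 genes). With libraries scaled by the median of ratios, 29 members and 8534 of all 16937 genes had an unadjusted p under 0.05, in either direction. Most falls were small: 24 of the 28 lay between 0 and 0.5 on the log2 scale, and only Kif17 fell by at least 1. Without Nkapl-WT testis 3, whose record says knockout, 25 fell (3851 of 16724 genes). Grouped by file record the set gave 0 calls among all genes (415 at an unadjusted p under 0.05) and so 0 among the members. A joint fit of all testis libraries called 12 members and 2518 of 17647 genes lower.

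Among the motors, all 4 kinesin-2 genes fell. Kif17, a homodimeric kinesin that in spermatids also carries the CREM coactivator ACT, read 52.4, 36.0 and 45.7 CPM in the wild-type testes and 5.25 and 4.07 CPM in the knockout testes. Both knockout libraries are far below all wild-type libraries (log2 -3.28 ± 0.15 SE, adjusted p = 1.29e-11). Kif17 shares 74 exonic bases with Sh2d5 on the same strand, where reads cannot be assigned to 1 gene. The heterotrimeric kinesin-2 changed far less. Its non-motor subunit Kifap3 went from 123, 115 and 120.2 to 91.7 and 93.3 CPM (log2 -0.37 ± 0.04 SE, adjusted p = 1.5e-06), with no overlap. The motor subunits Kif3b and Kif3a fell by 0.29 ± 0.04 and 0.11 ± 0.04 on the log2 scale, the latter close to the threshold (adjusted p = 0.045). In dynein-2, the heavy chain Dync2h1 went from 721, 771 and 750.1 to 609.6 and 606 CPM (log2 -0.30 ± 0.04) and the light intermediate chain Dync2li1 from 34.0, 35.5 and 35.5 to 29.5 and 28.9 CPM (log2 -0.26 ± 0.06), and neither overlapped between genotypes.

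All 7 IFT-A genes fell, with a median of -0.36. Ttc21a, one of a pair of paralogues for the same position in the complex, read 127, 124 and 126 CPM in wild type and 62.6 and 65.5 CPM in knockout (log2 -0.97 ± 0.04 SE, adjusted p = 8.08e-12). Its paralogue Ttc21b read 328, 354 and 344 and 317 and 307 CPM (log2 -0.13 ± 0.04 SE, adjusted p = 0.00928). Both fell without overlap, and the drop of Ttc21a was much the steeper. Ift122, a subunit of the IFT-A core, went from 365, 389 and 385 to 252 and 243 CPM (log2 -0.62 ± 0.04 SE, adjusted p = 4.11e-10). Its core partner Ift140, the member with the highest level per length, went from 808, 831 and 818 to 653 and 622 CPM (log2 -0.36 ± 0.03 SE, adjusted p = 1.21e-07). In both genes the genotypes are apart. Ift43 fell by 0.45 ± 0.06, Wdr19 by 0.20 ± 0.04 and Wdr35 by 0.19 ± 0.04 on the log2 scale.

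In IFT-B, 6 of 7 core and 5 of 6 peripheral genes fell. Ift74 and Ift81 encode the pair that binds tubulin as cargo. Ift74 read 218, 215 and 220.2 CPM in wild type and 162 and 165 CPM in knockout (log2 -0.41 ± 0.04 SE, adjusted p = 4.39e-08). Ift81 read 128, 128 and 129.7 and 97.97 and 102 CPM (log2 -0.36 ± 0.04 SE, adjusted p = 9.49e-07). The pair thus fell by similar amounts. Ift88, long known from the Tg737 mouse with defective cilia, went from 142, 141 and 145 to 115 and 114 CPM (log2 -0.32 ± 0.04). Ift172, the largest peripheral subunit, went from 507, 531 and 525 to 383 and 381 CPM (log2 -0.45 ± 0.03 SE, adjusted p = 7.63e-09). Neither gene overlapped between genotypes. The exceptions were the Rab-like small GTPase Ift27, at 24.3, 23.2 and 22.2 and 23.3 and 22.5 CPM, and Ift20, which also resides at the Golgi, at 39.9, 36.2 and 37.4 and 36.4 and 34.8 CPM. They differed by log2 -0.02 ± 0.07 and log2 -0.09 ± 0.06 (SE, adjusted p = 0.827 and 0.251), and the genotypes overlapped. The other called IFT-B genes (Ift22, Ift46, Ift52, Cluap1, Ift57, Ift80 and Traf3ip1) fell by 0.22 to 0.39 on the log2 scale.

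The BBSome was the group with the smallest share of members called. Of its 7 subunits, Bbs5 (log2 -0.37 ± 0.08 SE, adjusted p = 0.00189) and Bbs7 (log2 -0.36 ± 0.05 SE, adjusted p = 7.85e-06) fell. That is near the share of all genes that fell (26.1%), and the BBSome median was -0.06 against 0.01 over all genes. Bbs1, the subunit that binds the GTPase ARL6, read 81.2, 88.7 and 83.7 CPM in wild type and 90.1 and 92.8 CPM in knockout. The knockout libraries were the higher ones, but the gene was not called (log2 0.11 ± 0.05 SE, adjusted p = 0.0546). Bbs2, Bbs4, Bbs9 and Ttc8 had fold changes from -0.11 to 0.10 and were not called. Bbs4 shares 194 exonic bases with Adpgk on the other strand, and the strand setting of the counting is not given. Of the chaperonin-like genes that help to assemble the BBSome, Bbs12 went from 10.1, 9.37 and 8.49 to 6.96 and 6.27 CPM (log2 -0.50 ± 0.13 SE, adjusted p = 0.00359), and Bbs10 fell by 0.18 ± 0.06. Bbs12 was the member with the lowest level per length and shares 32 exonic bases with Cetn4 on the other strand.

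**Figure D2:**
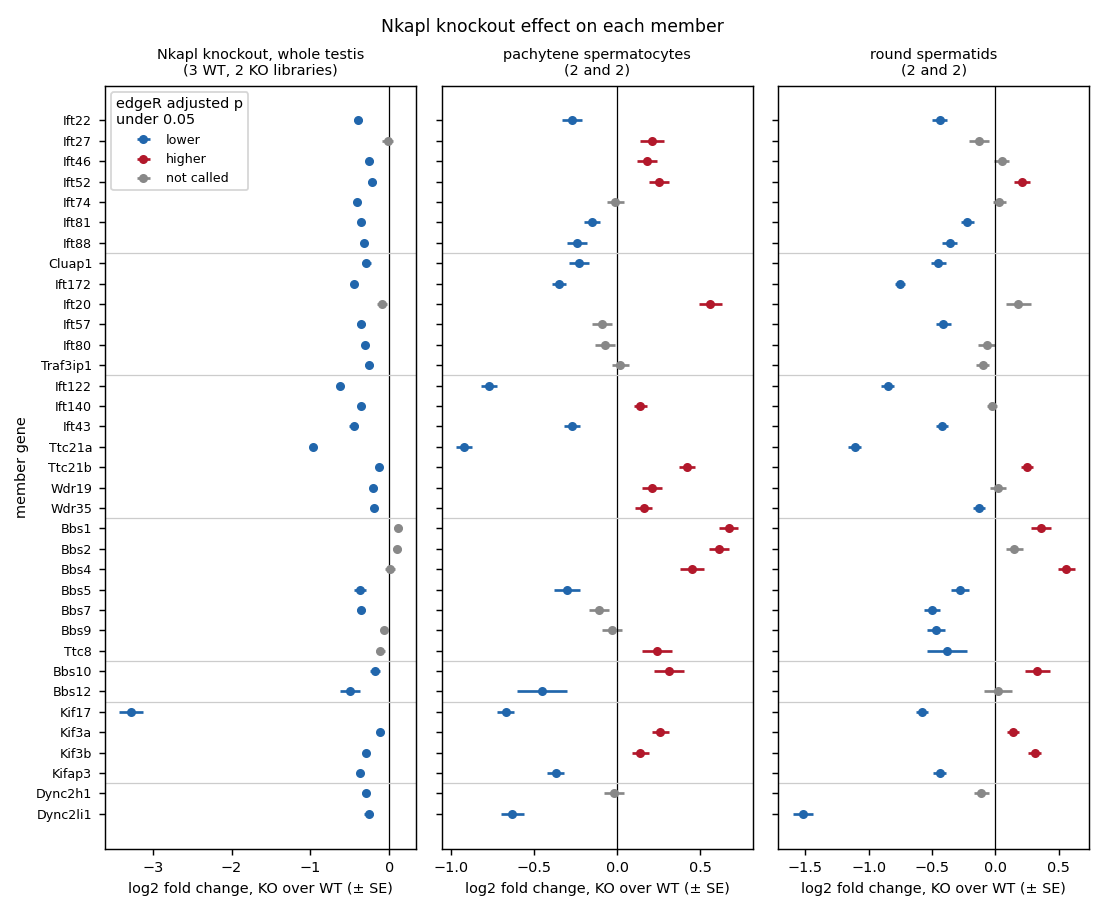
Log2 fold change (horizontal axis, knockout over wild type, bars are SE) of each of the 35 members (vertical axis, separated by complex) in whole testis, pachytene spermatocytes and round spermatids (axis scales differ between panels). Nearly all testis values lie left of 0 with Kif17 at -3.28, while the germ cell panels hold genes called lower (blue) and higher (red).

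In the testes of mice homozygous for the TGdel allele, 1 member fell and 0 rose, where 1.05% of all genes fell and 0.2% rose. The median log2 fold change was 0.02 against 0 over all genes. The member was Dync2li1, at 61.7 and 64.8 CPM in wild type and 45.5, 37.8 and 45.7 CPM in TGdel (log2 -0.56 ± 0.10 SE, adjusted p = 0.0435). All 3 TGdel libraries were below both wild-type libraries. The call was lost in 8 of 12 alternatives: the libraries whose heading and record agree (adjusted p = 0.0839), genes of low counts kept (0.0779), the replicate block (0.171), grouping by file record (1), and 4 of the 5 fits that left out a library (0.0599 to 0.380; all but that without TGdel testis 1). The log2 fold change was -0.12 by file record and -0.48 to -0.61 in the others. At an unadjusted p under 0.05, 7 members were lower and 5 higher, and DESeq2 called 4 lower and 3 higher (365 and 211 of 16011 genes). With median-of-ratios scaling, 12 members and 2474 of all 16011 genes had an unadjusted p under 0.05.

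Kif17 was again the member with the largest difference in this set, although it was not called. It read 41.0 and 23.7 CPM in wild type and 5.06, 11.1 and 16.0 CPM in TGdel (log2 -1.59 ± 0.39 SE, adjusted p = 0.0941). The groups did not overlap, but the levels varied within each. Ttc21a read 111 and 99.5 CPM in wild type and 77.0, 83.4 and 82.1 CPM in TGdel (log2 -0.38 ± 0.08 SE, adjusted p = 0.067). Ift122 read 457 and 423 and 317, 360.2 and 346 CPM (log2 -0.37 ± 0.09 SE, adjusted p = 0.0871). In both genes every TGdel library was below both wild-type libraries. On the other side, Bbs1 read 60.6 and 63.6 CPM in wild type and 89.6, 77.2 and 85.4 CPM in TGdel (log2 0.44 ± 0.09 SE, adjusted p = 0.0585), and Bbs2 read 71.1 and 76.6 and 111, 88.5 and 112 CPM (log2 0.49 ± 0.11 SE, adjusted p = 0.0834). The TGdel libraries were the higher ones in both. The round spermatid markers summed to 154 and 208 CPM in wild type and 97.9 to 149.8 CPM in TGdel, with 1 to 3 of the 9 at 0 in TGdel. Epididymis markers summed to 63.1 and 7.55 CPM in wild type and to 34.8, 6.78 and 5.70 CPM in TGdel testes 1 to 3, and Leydig cell markers to 363 and 373 CPM in wild type and 497, 163 and 259 CPM in TGdel. TGdel testis 1 also held 0.497% of its counts in Rn45s, the ribosomal RNA precursor, against 0.0598% to 0.0713% in the rest of the set. The part of these in the members' values was not tested.

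In Sox30 knockout testis no member was called, where 1.92% of all genes fell and 0.505% rose. The median log2 fold change was 0 over the members and over all genes. At an unadjusted p under 0.05, 3 members were lower and 1 higher, and DESeq2 and the fit without Sox30-WT testis 3 also called 0. With median-of-ratios scaling, 4 members and 1563 of all 17816 genes had an unadjusted p under 0.05. With the replicate number as a block 3 members were called lower (1367 of 17746 genes), and in a joint fit of all testis libraries 1 (713 of 17647 genes). Kif17 read 45.4, 72.0 and 31.0 CPM in wild type and 10.4 and 28.8 CPM in knockout (log2 -1.34 ± 0.48 SE, adjusted p = 0.397). Both knockout libraries lay below the lowest wild-type library, with a wide spread in each group. Kifap3 read 122, 153 and 108 and 86.7 and 96.3 CPM (log2 -0.48 ± 0.15 SE, adjusted p = 0.292), again without overlap. Ttc21a, in contrast, read 120.5, 143 and 109 CPM in wild type and 83.4 and 135 CPM in knockout (log2 -0.19 ± 0.21 SE, adjusted p = 1), so that 1 knockout library was the lowest of the set and the other lay among the wild types. The 2 Sox30 knockout libraries were the most unlike pair of replicates in the series by chi-square per gene, which grows with depth. Their round spermatid markers summed to 63.7 and 104.7 CPM against 146 to 291 CPM in wild type. Markers of the epididymis summed to 62.4 and 103 CPM in these 2 libraries and to 6.1 to 8.5 CPM in the Sox30-WT testes, and the part of either in the members' values was not tested.

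Whether the Nkapl effect was larger than the Sox30 effect was tested as a difference of effects in a joint fit. Only Bbs12 (log2 -0.88 ± 0.19 SE, adjusted p = 0.0383), Ift122 (log2 -0.62 ± 0.13 SE, adjusted p = 0.0341) and Ift88 (log2 -0.37 ± 0.08 SE, adjusted p = 0.0314) were lower by this test, where 2.64% of all genes were lower and 0.168% higher, and 0 members were higher. Ift122 read 341, 359 and 344 CPM in Sox30-WT and 312 and 394 CPM in Sox30-KO testes, and Ift88 140.0, 141 and 147 and 146 and 154 CPM. Neither was lower in both Sox30 knockout libraries. Bbs12 read 9.38, 11.3 and 11.4 CPM in Sox30-WT and 13.0 and 15.03 CPM in Sox30-KO, where both knockout libraries were the higher ones. For Kif17 the difference of effects was -1.92 ± 0.63 (adjusted p = 0.164), so its fall in Nkapl knockout was not shown to be larger than in Sox30 knockout. None of the 3 calls held when only libraries with agreeing heading and record were used (141 of 17789 genes lower). Without Sox30-KO testis 1 there were 13 calls, against 1822 of 18100 genes lower.

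**Figure D3:**
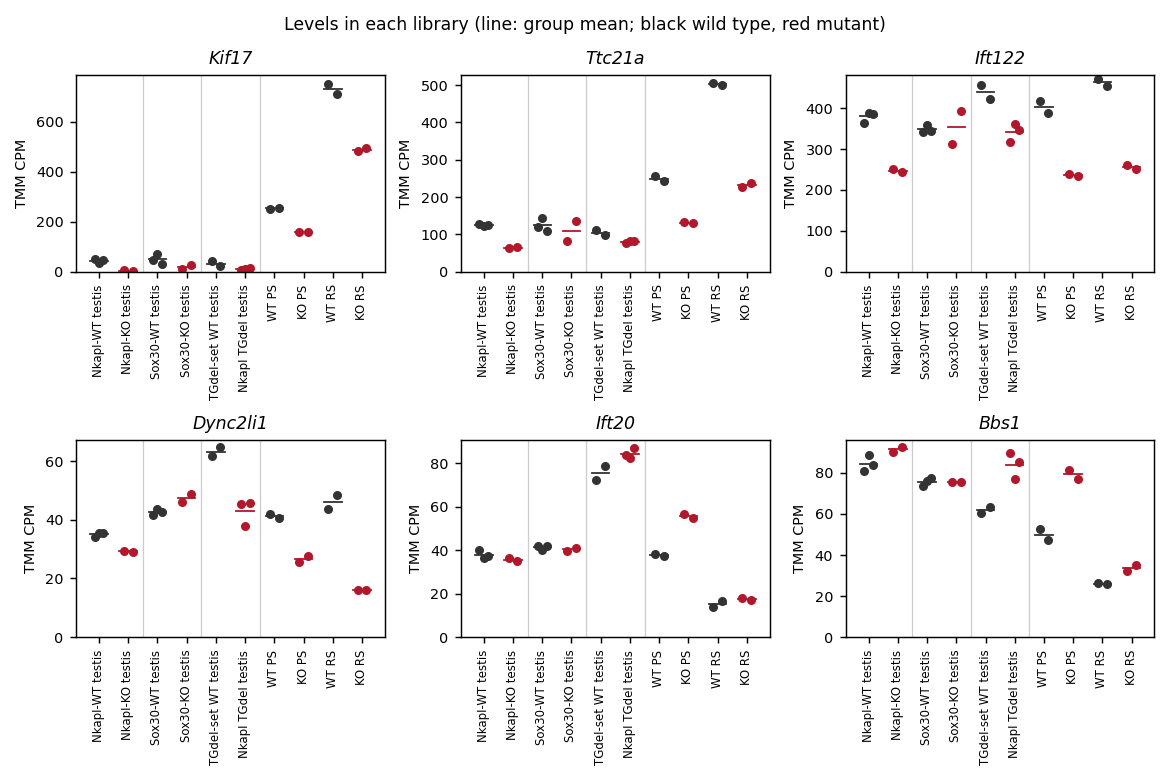
CPM (vertical axes, from 0) of 6 members in every library by group (points are libraries, lines are group means, black wild type, red mutant). Levels compare only within a testis set or within the germ cell libraries. Among the germ cell libraries Kif17 and Ttc21a are highest in wild-type spermatids, while Ift20 and Bbs1 are lower in spermatids than in spermatocytes. Mutant libraries of Kif17 and Ttc21a lie below the matching wild-type mean except for 1 Sox30 knockout library of Ttc21a.

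In the germ cell preparations, the members first differed by stage. Comparing wild-type round spermatids with spermatocytes labelled wild type, 18 members were higher and 11 lower in spermatids, where 41.1% of all genes were higher and 36.4% lower, shares of the same order. The median log2 difference was 0.16 against 0.05 over all genes. All 4 kinesin-2 genes and 4 of the 6 IFT-B peripheral genes were higher in spermatids, and 4 of the 7 BBSome genes were lower, with a BBSome median of -0.53. The round spermatid markers rose between these groups in 9 of 9 cases and the Sertoli cell markers fell in 8 of 8. Leydig cell markers fell in 5 of 5 tested and spermatogonial markers in 3 of 5, with 0 higher. Markers of other somatic cells went the other way: 4 of 4 peritubular myoid and 3 of 3 tested macrophage markers rose. Myoid markers summed to 4.85 and 5.05 CPM in spermatocytes and 9.98 and 10.2 CPM in spermatids.

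Kif17 read 252 and 256 CPM in spermatocytes and 752 and 712 CPM in spermatids (log2 1.53 ± 0.05 SE, adjusted p = 5.18e-22). Kifap3 read 219 and 206 and 494 and 518 CPM (log2 1.25 ± 0.05 SE, adjusted p = 1.19e-19). Ttc21a read 256 and 242 and 506 and 500.2 CPM (log2 1.02 ± 0.05 SE, adjusted p = 8.42e-18). Each of these genes rose by at least 1 on the log2 scale from the earlier to the later stage. Bbs5, a lipid-binding BBSome subunit, read 45.6 and 40.7 and 85.0 and 100.3 CPM (log2 1.10 ± 0.07 SE, adjusted p = 2.36e-14), against the direction of most of its complex. Ift81 read 155 and 142 and 245 and 251 CPM (log2 0.74 ± 0.05 SE, adjusted p = 1.37e-13).

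The opposite order was seen in Ttc8, Ift80, Ift20 and Bbs1. Ttc8, the BBSome subunit BBS8, read 21.1 and 19.0 CPM in spermatocytes and 4.90 and 6.59 CPM in spermatids (log2 -1.80 ± 0.12 SE, adjusted p = 2.49e-14). Ift80, a peripheral IFT-B subunit mutated in skeletal ciliopathies, read 191 and 165 and 60.4 and 63.9 CPM (log2 -1.52 ± 0.06 SE, adjusted p = 5.19e-19). Ift20 read 38.4 and 37.3 and 13.9 and 16.7 CPM (log2 -1.30 ± 0.08 SE, adjusted p = 1.8e-14). All 3 were lower by more than 1 on the log2 scale. Within IFT-A, Ttc21a was higher in spermatids while its paralogue Ttc21b, at 245 and 224 and 156 and 166 CPM, was lower (log2 -0.54 ± 0.05 SE, adjusted p = 1.5e-10).

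The stage difference was largely kept in the knockout, in which 14 members were higher and 16 lower in spermatids than in spermatocytes (37.7% and 39.3% of all genes). In both genotypes 14 members were higher and 11 lower (33% and 31.3% of all genes). The largest differences were those of Ttc8 (log2 -2.43 ± 0.12), Ift20 (log2 -1.68 ± 0.08), Bbs12 (log2 1.63 ± 0.14), Kif17 (log2 1.61 ± 0.05), Ift80 (log2 -1.52 ± 0.06), Bbs1 (log2 -1.24 ± 0.07) and Bbs9 (log2 -1.23 ± 0.07). Bbs12 is a gene of few counts, at 5.74 and 4.18 CPM in spermatocytes labelled knockout and 16.0 and 14.7 CPM in knockout spermatids. Dync2li1 and Ift172 were called in opposite directions in the 2 genotypes, as were 1.64% of all genes. Both were slightly higher in spermatids in wild type and lower in spermatids in knockout.

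In pachytene spermatocytes labelled knockout, 15 members were higher and 13 lower than in those labelled wild type, where 33.6% of all genes were higher and 25.7% lower. The median log2 fold change was -0.02 against 0.07 over all genes. Ttc21a read 256 and 242 CPM in those labelled wild type and 133 and 129.8 CPM in those labelled knockout (log2 -0.92 ± 0.05 SE, adjusted p = 2.2e-15). Ift122 read 418 and 388 and 239 and 234 CPM (log2 -0.77 ± 0.05 SE, adjusted p = 6.83e-14). Kif17 read 252 and 256 and 160.0 and 160.4 CPM (log2 -0.67 ± 0.05 SE, adjusted p = 9.21e-13). The same 3 genes headed the falls in whole testis, and here too no library overlapped with the other group. Dync2li1 (42.0 and 40.5 and 25.6 and 27.6 CPM, log2 -0.63 ± 0.07 SE, adjusted p = 1.87e-08) and Ift172 (606 and 594.4 and 482 and 458 CPM, log2 -0.35 ± 0.04 SE, adjusted p = 5.77e-08) fell as well.

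The largest rises were those of BBSome genes. Bbs1 read 52.6 and 47.2 CPM in spermatocytes labelled wild type and 81.5 and 77.0 CPM in those labelled knockout (log2 0.67 ± 0.06 SE, adjusted p = 5.65e-10). Bbs2, of the BBSome core, read 59.2 and 55.8 and 89.6 and 85.8 CPM (log2 0.61 ± 0.06 SE, adjusted p = 7.18e-10). Ttc21b read 245 and 224 and 318 and 309 CPM (log2 0.42 ± 0.05 SE, adjusted p = 4.45e-08), opposite to its paralogue. None of these overlapped between groups. Bbs4 and Ttc8 also rose, so that 4 of the 7 BBSome genes were higher and only Bbs5 was lower, and Ift20 rose (log2 0.56 ± 0.07). The number of rises depended on the fit: 8 members were higher with the 4 spermatocyte libraries alone (4057 of 15137 genes) and 9 by DESeq2 (3620 of 15805 genes). Nkapl went against these labels, and round spermatid markers were lower in the libraries labelled knockout in 9 of 9 cases (median log2 -0.62).

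In knockout round spermatids 17 members were lower and 7 higher than in wild type, where 31% of all genes were lower and 29% higher, and the median log2 fold change was -0.13 against 0.03 over all genes. Dync2li1 changed most. It read 43.8 and 48.4 CPM in wild type and 16.2 and 16.0 CPM in knockout (log2 -1.52 ± 0.08 SE, adjusted p = 1.06e-15), whereas its heavy chain partner Dync2h1 was not called (190.0 and 196 and 181 and 177 CPM, log2 -0.11 ± 0.06 SE, adjusted p = 0.126). Ttc21a read 506 and 500.2 and 227 and 238 CPM (log2 -1.11 ± 0.05 SE, adjusted p = 4.93e-18). Ift122 read 470.5 and 455 and 262 and 250.5 CPM (log2 -0.85 ± 0.05 SE, adjusted p = 3.87e-15), while Ift140 was not called (866 and 862 and 848 and 845 CPM, log2 -0.03 ± 0.04 SE, adjusted p = 0.561). The falls therefore did not extend to all subunits of a complex.

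Ift172 read 715 and 704 CPM in wild-type and 424 and 422 CPM in knockout spermatids (log2 -0.75 ± 0.04 SE, adjusted p = 8.74e-15). Kif17 read 752 and 712 and 483 and 495 CPM (log2 -0.58 ± 0.05 SE, adjusted p = 3.68e-12). Kifap3 read 494 and 518 and 379 and 365 CPM (log2 -0.44 ± 0.05 SE, adjusted p = 4.65e-09). In each gene both knockout libraries were below both wild-type libraries. Bbs7 (149.7 and 146 and 102 and 108 CPM, log2 -0.50 ± 0.06 SE, adjusted p = 6.56e-09) and Ift43 (155 and 155 and 114 and 118 CPM, log2 -0.42 ± 0.05 SE, adjusted p = 8.75e-08) fell too. The genes that rose were Bbs1, Bbs4, Bbs10, Ift52, Kif3a, Kif3b and Ttc21b, by 0.14 (Kif3a) to 0.56 (Bbs4) on the log2 scale. Without knockout spermatid library 1 (KO RS 1) only 4 of the members were called higher (3650 of 16257 genes). Knockout spermatids also had lower round spermatid markers in 9 of 9 cases, with a median log2 fold change of -0.40. Prm1, at log2 -3.86 ± 0.06, lay far below that median.

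The knockout effects in the 2 cell types, by the labels in spermatocytes, were compared by an interaction test. For 13 members the effect was lower in spermatids than in spermatocytes and for 0 it was higher, where 16.4% of all genes were lower and 9.02% higher. The split was 9 lower and 2 higher when libraries were scaled by the median of ratios in place of the trimmed mean. With that scaling 1902 of all 15805 genes were lower and 1941 higher, so the lean of all genes toward lower was not kept. At an unadjusted p under 0.05, 17 members were lower and 2 higher. With median-of-ratios scaling, 14 members and 5706 of all 15805 genes had an unadjusted p under 0.05. DESeq2 called 6 members lower and 1 higher, and 1228 and 1024 of all 15805 genes. Dync2li1 had the largest difference of effects (log2 -0.88 ± 0.11 SE, adjusted p = 1.02e-06), followed by Ttc8 (log2 -0.62 ± 0.19 SE, adjusted p = 0.0139). Bbs2 (log2 -0.46 ± 0.09 SE, adjusted p = 0.000453), Bbs9 (log2 -0.44 ± 0.10 SE, adjusted p = 0.00113) and Bbs7 (log2 -0.39 ± 0.08 SE, adjusted p = 0.000491), which form the BBSome core, were all among the 13. Ift172 (log2 -0.39 ± 0.06 SE, adjusted p = 2.85e-05), Ift57 (log2 -0.32 ± 0.08 SE, adjusted p = 0.00523) and Wdr35 (log2 -0.29 ± 0.07 SE, adjusted p = 0.00236) differed as well. Kif17 did not pass (log2 0.08 ± 0.07 SE, adjusted p = 0.379), with the effects of -0.67 and -0.58 given above. These contrasts use the same spermatocyte and spermatid libraries as the comparisons above.

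Across tissue and cells, 12 members were lower in knockout testis, in spermatocytes labelled knockout and in knockout spermatids: Bbs5, Cluap1, Dync2li1, Ift122, Ift172, Ift22, Ift43, Ift81, Ift88, Kif17, Kifap3 and Ttc21a. The same combination was found in 11.1% of all genes tested in the 3 comparisons. Another 5 (Bbs10, Ift52, Kif3a, Kif3b and Ttc21b) were lower in knockout testis but higher in both germ cell types, against 3.72% of all genes. Ttc8 and Wdr35 were higher in spermatocytes and lower in spermatids labelled knockout, against 2.2% of all genes. All 18 members that were higher in wild-type spermatids than in spermatocytes fell in Nkapl knockout testis, with a median of -0.36, where 55.8% of all genes of this class fell (median -0.28). Of the 11 members that were lower in spermatids, 5 fell in testis, with a median of -0.11, where 9.21% of all such genes fell (median 0.10). Of the 7 members not called in testis 6 belonged to this class. Across the 35 members the log2 stage difference and the log2 testis effect had a Pearson r of -0.52 and a Spearman rho of -0.74, and -0.60 and -0.72 over the 34 without Kif17. Over all 14942 genes tested in both they were -0.41 and -0.49. This is a description: genes of 1 library share its depth and cell makeup, and the testis and germ cell libraries are separate.

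**Figure D4:**
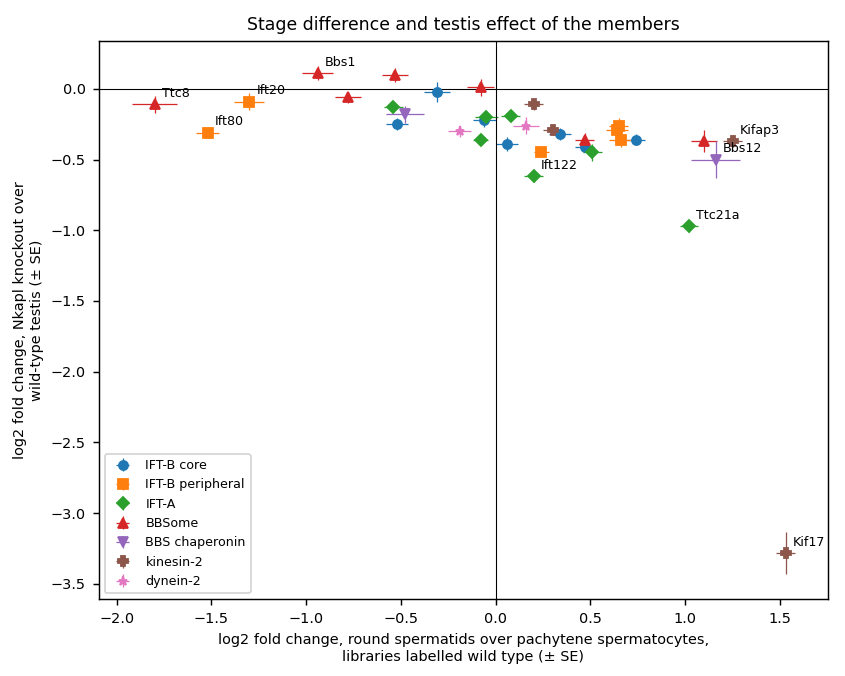
Log2 fold change of round spermatids over pachytene spermatocytes labelled wild type (horizontal axis) against log2 fold change of Nkapl knockout over wild-type testis (vertical axis) for the 35 members, marked by complex, with SE bars. Members higher in spermatids (right) all lie below 0 on the vertical axis, with Ttc21a and Kif17 lowest, and Bbs1, Ift20 and Ttc8 on the left lie near 0.

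Related genes outside the named set moved in part with it. Of 21 further subunits, regulators and cargo factors of the pathway, 13 fell and 2 rose in Nkapl knockout testis (median -0.28), where 26.1% of all genes fell and 17.8% rose. In spermatocytes labelled knockout 9 rose and 3 fell (33.6% and 25.7% of all genes), and in knockout spermatids 6 rose and 5 fell (29% and 31%), shares near or below those of all genes except for the rises in spermatocytes. None of the 21 was called in Sox30 knockout or TGdel testis. Between the wild-type stages, 9 were higher and 8 lower in spermatids (41.1% and 36.4% of all genes). Spef2, a sperm tail protein that binds Ift20, read 85.8, 92.3 and 93.8 CPM in wild-type and 56.4 and 51.3 CPM in knockout testes (log2 -0.76 ± 0.05 SE, adjusted p = 2.77e-09), the largest fall of the 21. Ttc30a1 and Ttc30a2, near-identical copies whose reads the counting may have split, rose (log2 0.94 ± 0.07 and log2 0.58 ± 0.05) in spermatocytes labelled knockout.

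Of 8 transcription regulators of ciliary genes, 6 were tested in the Nkapl set. There 3 fell and 0 rose, where 26.1% of all genes fell and 17.8% rose. Foxj1, the master regulator of motile cilia, read 42.1, 31.6 and 36.0 CPM in wild-type and 2.38 and 2.32 CPM in knockout testes (log2 -3.96 ± 0.14 SE, adjusted p = 9.72e-13). Rfx1 read 51.5, 50.6 and 49.1 and 22.9 and 23.0 CPM (log2 -1.14 ± 0.06 SE, adjusted p = 4.47e-11). Rfx2, needed for spermatid development, read 404, 430.2 and 416 and 302 and 296 CPM (log2 -0.48 ± 0.04 SE, adjusted p = 6.51e-09). In each gene the knockout libraries were below all wild-type libraries. In wild-type germ cells Foxj1, Rfx1 and Rfx2 were higher in spermatids, as were 6 of the 7 regulators tested, while Foxn4 was lower. Of all genes 41.1% were higher and 36.4% lower. Foxj1 was at 95.6 and 106 CPM in spermatocytes and 254 and 257 CPM in spermatids (log2 1.34 ± 0.05 SE, adjusted p = 2.57e-19). The knockout difference of Foxj1 within germ cells was log2 -0.52 ± 0.06 in spermatocytes by their labels and log2 -0.09 ± 0.05 in spermatids (the latter not called). Of the 7 regulators tested, 3 were lower and 1 higher in spermatocytes labelled knockout (25.7% and 33.6% of all genes). In knockout spermatids 3 were also lower and 1 higher (31% and 29% of all genes). None of the regulators was called in Sox30 knockout or TGdel testis, where Foxj1 differed by log2 -0.25 ± 0.38 and log2 -1.29 ± 0.37.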

How the data were processed

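The deposited files hold raw whole-number read counts per gene, from stranded total RNA libraries per the labels' protocols. The submitters' processing notes list mm10 as build and HISAT2 2.1.0, HTSeq and DESeq2 as tools. The annotation was, like the strand setting of the counting, not given in the sources used here. HTSeq's lines for reads not assigned to a gene, for any reason, were left out of library sizes. Of 26 files, 23 hold distinct libraries, and the heading and the file record of 15 of 18 testis files name different samples. Libraries were grouped by heading. Genes were filtered by group (filterByExpr), scaled with TMM factors (trimmed mean of M-values) and tested two-sided in edgeR 4.0.16 by its quasi-likelihood F test (threshold 0.05 after Benjamini-Hochberg adjustment over all genes), each testis set alone and the 8 germ cell libraries together, which share 1 estimate of spread. The SE is the log2 fold change over the square root of F. The scripts were tested on simulated data. Replicates differed by more than sampling noise (chi-square per gene 1.51 to 48.6, where sampling alone gives about 1), so none was merged. The value was 1.51 in spermatocytes labelled knockout, 2.01 in knockout spermatids, 2.70 in Nkapl-KO testes and 48.6 in Sox30-KO testes. It grows with the depth of the libraries. Alternatives were DESeq2 1.42.0, other scaling, no filter, a replicate block, other groupings and libraries left out. Values in every library are printed per comparison for the called members of smallest p (up to 8) and up to 4 with the largest fold change, with counterpart subunits. Members, lists and tests were chosen with earlier results of these data known. RPKM and log2 ratios were computed here from the deposited counts.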

Additional observations from a re-analysis of the deposited data

Results flagged for a closer look

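The results given here stand out because a test of the difference between 2 knockout effects passed the threshold (edgeR, adjusted p under 0.05). The Nkapl knockout effect on 13 members was lower in round spermatids than in pachytene spermatocytes (16.4% of all genes), where the Nkapl level goes against the spermatocyte labels. DESeq2 called 6 lower and 1 higher (1228 and 1024 of 15805 genes), and 5 were lower without KO RS 2 (1417 of 16242 genes). The largest differences were those of Dync2li1 (log2 -0.88), Ttc8 (-0.62), Bbs2 (-0.46) and Bbs9 (-0.44). Bbs7 (-0.39), Ift172 (-0.39), Ift20 (-0.38), Ift27 (-0.35), Ift57 (-0.32) and Bbs1 (-0.30) followed. Wdr35 (-0.29), Ttc21a (-0.19) and Ift140 (-0.17) differed least.

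The Nkapl knockout effect in whole testis was lower than the Sox30 knockout effect for Bbs12 (log2 -0.88), Ift122 (-0.62) and Ift88 (-0.37). By chi-square per gene, which grows with depth, the Sox30 knockout libraries differ from each other more than any other replicate pair of the series.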

How the results depend on the processing

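None of the members tracked singly (the called ones of smallest p or largest fold change in each comparison) reversed its direction, but medians near 0 changed sign: the spermatocyte median of -0.02 was 0.04 without WT PS 1, and the TGdel median of 0.02 was -0.03 with the replicate block and -0.07 by file record. Counts of calls over all genes also changed with the setting and are given beside those of the members. In the Nkapl testis set, 1 member rose with no filter on low counts (3237 of 21494 genes). As single libraries were left out 0 to 2 rose (2 without Nkapl-WT testis 2), against 1816 to 3169 genes. The 28 falls became 25 to 28 with a library left out, 0 grouped by file record and 12 in a joint fit of all testis libraries. All genes gave 3617 to 4279, 0 and 2518 falls in these settings, against 4420 in the main fit. In the Sox30 set 3 members fell with the replicate block and 1 in the joint fit, against 1367 of 17746 and 713 of 17647 genes. In the TGdel set 3 rose by DESeq2 and 3 in the joint fit, against 211 of 16011 and 205 of 17647 genes. There 4 fell by DESeq2, 0 with no filter, 0 with the replicate block, 0 by file record and 0 to 2 with a library left out (2 only without Nkapl TGdel testis 1). The falls over all genes were 365, 76, 0, 0 and 0 to 405. In spermatocytes 8 rose with no filter, 9 by DESeq2 and 8 with only the 2 groups in the fit, against 4113 of 20925, 3620 of 15805 and 4057 of 15137 genes. In spermatids 4 to 7 rose with a library left out, 4 without KO RS 1, against 3518 to 3720 genes. For the difference between cell types, 2 were higher with median-of-ratios scaling, 1 with no filter, 1 by DESeq2 and 0 to 2 with a library left out. The higher calls over all genes were 1941, 1381, 1024 and 933 to 1472. Lower were 7 with no filter, 6 by DESeq2 and 5 to 17 with a library left out (8 without either wild-type spermatid library, WT RS, 7 without KO RS 1, 5 without KO RS 2). The lower calls over all genes were 1681, 1228 and 1417 to 2977. For Nkapl minus Sox30, 7 were lower by DESeq2, 6 with the replicate block, 0 with agreeing libraries only, 0 by file record and 0 to 13 with a library left out (13 without Sox30-KO testis 1, 10 without Sox30-WT testis 2, at most 1 without any other). Of all genes 799, 895, 141, 0 and 40 to 1822 were lower (1822 without Sox30-KO testis 1, 994 without Sox30-WT testis 2). The causes were not tested. Replicate numbers pair nothing in the labels, only 2 numbers were shared within a set, and the correlation of same-numbered deviations ran from -0.24 to 0.43. With the replicate block 25 members fell in the Nkapl set (3837 of 16724 genes), and the germ cell counts of members were those without it. In spermatocytes, spermatids and both stage comparisons the 8 or 9 members tracked singly kept their calls in every alternative run, which does not cover the smaller rises counted above. With 2 libraries in a group, small differences among members of low counts such as Bbs12 and Ttc8 are the least certain, and round spermatid marker sums were lower in the mutant than in the wild-type testes of each set.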
